A study of Mus musculus with 11 samples.

Results

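The unfolded protein response and the integrated stress response are described here through 31 genes, taken by symbol from a list of their sensors, transcription factors, endoplasmic reticulum (ER) chaperones, degradation genes and downstream targets. These symbols matched 32 of the 52143 gene rows of the deposited table, because Ddit3 is listed under 2 identifiers. Values are TPM (transcripts per 1000000 transcripts), a level corrected for transcript length, so levels can be compared between genes. All were measured in mouse RAW cells, a macrophage-type line, by sequencing of total RNA. The study concerned Girdin (GIV, encoded by Ccdc88a) in macrophages that meet lipopolysaccharide (LPS), an endotoxin of Gram-negative bacteria and the ligand of Toll-like receptor 4. Control cells carried the hairpin named shC and GIV-depleted cells the hairpin shGIV, and each line was taken at 0 h or at 5 h, with LPS given at 100 ng/ml.

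The 9 libraries used were control cells at 0 h (replicates 1 and 3), control cells at 5 h (replicate 2 only), GIV-depleted cells at 0 h (replicates 1, 2 and 3) and GIV-depleted cells at 5 h (replicates 1, 2 and 3). Control cells at 0 h replicate 2 were left out by the rule that chose the rows, and control cells at 5 h replicate 3 were not analysed here. Every group carries a hairpin, so untransfected RAW cells are not among the groups, and the labels name no further hairpin against GIV and do not say whether the lines are clones. Whether replicates came from separate cultures is not in the labels, and p-values then measure only the spread between these samples. Log2 changes are of TPM + 1, which shrinks the change of genes near 0. They were tested with limma over the 13711 genes with enough signal, and "called" means an adjusted p (Benjamini-Hochberg over all these genes) under 0.05. For the lone control library at 5 h, the spread of the other groups was assumed.

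The library left out differed in composition. Its protein-coding genes made up 7.80% of all TPM, where the 9 libraries used had 73.9% to 81.5%, and the 31 symbols summed to 416 TPM, against 3946 to 5264. The depth of each library is unknown, since TPM do not hold it. All 10 macrophage markers listed, such as Adgre1 and Csf1r, were above 1 TPM in every group, and their sum was 18154 to 19801 TPM at 0 h and 12273 to 14743 TPM at 5 h. No epithelial, fibroblast or T cell marker listed was above 1 TPM. Of 8 plasma cell markers, listed because such cells carry a large ER, Sdc1 was above 1 TPM in every group, Tnfrsf17 in all but control cells at 5 h, and Irf4 in both groups at 5 h. The list's sum was 38.2 to 43.2 TPM at 0 h and 57.2 to 77.01 TPM at 5 h, while Igkc, Jchain and Mzb1 were at 0 in the control library at 5 h and Mzb1 in GIV-depleted cells at 5 h. The sum of 6 neutrophil markers was 1.09 to 3.95 TPM at 0 h and 13.3 to 17.3 TPM at 5 h, with S100a8 alone above 1 TPM and Elane, Ly6g, Ngp and S100a9 at 0 in both groups at 5 h. The 5 endothelial markers summed to 2.98 to 5.85 TPM, with Vwf above 1 TPM in every group and Pecam1 in GIV-depleted cells at 5 h. The part of these markers in the LPS results was not tested. Ccdc88a itself was at 10.0 and 7.69 TPM in control cells at 0 h, 5.77 TPM in control cells at 5 h, 6.93, 5.31 and 5.58 TPM in GIV-depleted cells at 0 h and 3.08, 2.62 and 3.39 TPM at 5 h. Every depleted library lay below the control libraries of its time, but the log2 differences of -0.50 ± 0.15 (SE, limma adjusted p = 0.232) and -0.75 ± 0.19 (limma adjusted p = 0.0681) were not called.

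As background, the ER folds secreted and membrane proteins, and its chaperone Hspa5 (BiP) holds the sensors Ern1 (IRE1), Eif2ak3 (PERK) and Atf6 inactive until unfolded protein draws it away. Ern1 then splices Xbp1 mRNA, Atf6 is cut into a transcription factor, and both raise chaperone and degradation genes through ER stress elements in their promoters. Eif2ak3 phosphorylates the translation factor eIF2, which slows protein synthesis but favours translation of Atf4. The integrated stress response is this last step, which other kinases share: Eif2ak2 (PKR) senses double-stranded RNA, Eif2ak4 (GCN2) amino acid shortage and Eif2ak1 (HRI) haem or mitochondrial stress. Atf4 and its partners act through C/EBP-ATF elements at genes of amino acid supply, and at Ddit3 (CHOP) and Ppp1r15a (GADD34). Splicing of Xbp1, cleavage of Atf6 and phosphorylation cannot be read from gene-level TPM.

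The promoter elements of both branches were looked for in RefSeq promoter windows (GRCm38.p6, 250 bases before to 50 after the start site), which were found for 28 of the 31 genes. Both strands were searched for 4 motifs. A gene was counted if any of its windows held a match, and all 32851 windows belong to 27025 genes. Shares of genes and of windows, here and below, are thus unlike measures. The C/EBP-ATF element TGATGNAAN was in 4 of these 28 genes and in 3.95% of all 32851 windows. Each of these 4 genes rose with LPS, as given further on. Atf4, Atf5, Ddit3, Ddit4, Ppp1r15a, Sesn2 and Syvn1 rose as well, but their windows held no match to this element. The sites of the 4 genes are shown in the motif's orientation, with its fixed letters in capitals.
Asns, chr6:7693224-7693232, minus strand: TGATGaAAc
Chac1, chr2:119351048-119351056, minus strand: TGATGcAAc
Herpud1, chr8:94386316-94386324, minus strand: TGATGcAAc
Trib3, chr2:152344039-152344047, plus strand: TGATGtAAa
The sites of Asns, Chac1 and Herpud1 begin 23, 194 and 113 bases before the RefSeq start site. That of Trib3 begins 13 bases past it. Gene positions given further on are from GENCODE, whose starts differ for some genes. By these, the Asns site and the Hspa5 and Dnajb11 sites below lie inside their genes, and the Trib3 site lies before the start of its gene. The Dnajb11 site also begins 7 bases past the RefSeq start site.

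The ER stress element, CCAAT and CCACG with 9 free bases between them, was in 8 of the 28 genes (Calr, Canx, Creld2, Dnajc3, Hsp90b1, Hspa5, Pdia6 and Syvn1) and in 0.119% of all windows. Hsp90b1 held 2 matches. ER stress element II, ATTGG and CCACG with 1 free base between them, was in 2 genes and in 0.0365% of windows, and shares its CCACG with the first element. The core TGACGTGG of the unfolded protein response element was in 0 of the 28 and in 0.676% of windows. By TPM as deposited, the sites below are from a gene that rose with LPS (Syvn1), one not called (Hspa5) and one that fell (Dnajc3). The others are from the holders of element II, of which Dnajb11 fell and Herpud1 rose by the same scaling.
Syvn1, chr19:6046532-6046550, plus strand: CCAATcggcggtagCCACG
Hspa5, chr2:34772025-34772043, plus strand: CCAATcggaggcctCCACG
Dnajc3, chr14:118937827-118937845, plus strand: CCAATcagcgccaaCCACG
Dnajb11, chr16:22857852-22857862, plus strand: ATTGGcCCACG
Herpud1, chr8:94386377-94386387, plus strand: ATTGGgCCACG
With TPM as deposited, Syvn1 alone among the holders of the first element was called higher. Calr, Creld2, Dnajc3, Hsp90b1 and Pdia6 were called lower in both lines, and Canx in GIV-depleted cells. By that scaling the 2 holders of element II differed in direction. Under TMM, described further on, Dnajb11 was instead called higher in control cells (0.21) and was at 0.0031 in GIV-depleted cells. Hspa5 and Canx were then called higher in both lines, so these directions rest on the scaling. A match is a description, not a site of binding or a cause.

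The 250 bases before the start site are printed, 5′ to 3′ on the gene's strand, for the 3 genes that changed most among those with a match there. Capitals mark the whole match, which in Chac1 is the reverse complement of the motif.
Chac1, chr2:119350992-119351241, plus strand: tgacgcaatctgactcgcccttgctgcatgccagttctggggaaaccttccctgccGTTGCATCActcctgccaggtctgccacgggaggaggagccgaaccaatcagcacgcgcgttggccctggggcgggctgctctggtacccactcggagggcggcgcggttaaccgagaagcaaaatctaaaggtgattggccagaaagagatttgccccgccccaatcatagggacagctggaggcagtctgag
Dnajc3, chr14:118937682-118937931, plus strand: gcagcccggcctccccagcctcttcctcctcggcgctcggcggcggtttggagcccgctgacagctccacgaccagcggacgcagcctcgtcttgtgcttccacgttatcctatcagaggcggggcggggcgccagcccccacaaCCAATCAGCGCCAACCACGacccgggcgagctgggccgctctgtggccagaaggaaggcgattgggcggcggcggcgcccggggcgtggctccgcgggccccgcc
Syvn1, chr19:6046326-6046575, plus strand: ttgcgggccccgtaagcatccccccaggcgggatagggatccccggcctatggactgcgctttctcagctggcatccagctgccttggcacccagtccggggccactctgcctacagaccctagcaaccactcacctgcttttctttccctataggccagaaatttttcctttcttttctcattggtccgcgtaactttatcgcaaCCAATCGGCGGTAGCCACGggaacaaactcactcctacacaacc

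In control cells at 0 h most chaperones were at the abundant end of the set and most integrated stress response targets at the scarce end. Exceptions were the target Asns, at 45.6 ± 2.08 TPM (SD, n = 2), and the chaperones Dnajc3 and Dnajb9, at 25.3 ± 0.0880 and 7.49 ± 0.109 TPM. Calr, the calcium-binding lectin chaperone calreticulin, was highest at 1109 ± 90.1 TPM (SD, n = 2), followed by Hspa5 at 749 ± 39.9 TPM and Hsp90b1, the ER member of the Hsp90 family, at 605 ± 13.1 TPM. Pdia3, Canx, Manf and Pdia6 came next in that order, and no neighbours among these first 7 overlapped. Xbp1 (157 ± 14.2 TPM) and Atf4 (144 ± 5.87 TPM) were the most abundant transcription factors, and Xbp1 overlapped with Sdf2l1 between them. Of the sensors, Atf6 was at 31.8 ± 1.02, Eif2ak3 at 9.004 ± 2.37 and Ern1 at 5.01 ± 0.582 TPM. At the bottom, Chac1 (1.76 ± 0.378 TPM), Trib3 (1.58 ± 0.571 TPM) and Ddit4 (1.22 ± 0.381 TPM) overlapped with their neighbours.

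**Figure D1:**
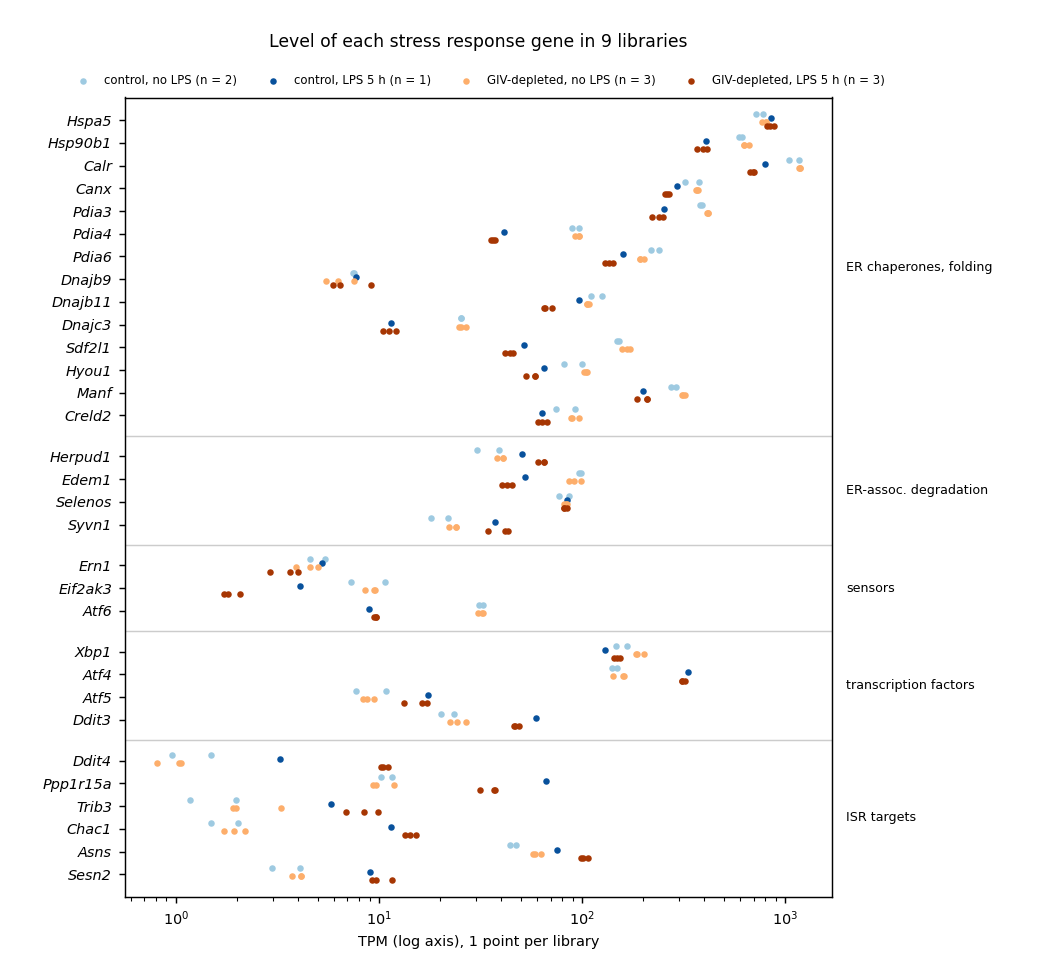
Level in TPM (log axis) of each of the 31 genes, 1 point per library, coloured by line and hours of LPS and grouped by role; 9 libraries. The integrated stress response targets, Atf4, Atf5 and Ddit3 sit further right at 5 h in both lines, while Sdf2l1, Pdia4, Dnajc3, Edem1 and Atf6 sit further left.

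With LPS the same genes rose in both lines. Atf4, Atf5, Ddit3 and all 6 integrated stress response targets rose, as did Herpud1 and Syvn1 of ER-associated degradation, while most ER chaperones, the degradation gene Edem1 and the sensors Atf6 and Eif2ak3 fell. Of the 14 chaperones, 3 in control and 5 in GIV-depleted cells were called lower under all 4 scalings described further on. In control cells 11 of the 31 genes were called higher and 14 lower, where 58.9% of all genes tested were called, 14.8% higher and 44.1% lower. In GIV-depleted cells 11 were higher and 16 lower, where 75.5% of all genes were called, 15.8% higher and 59.7% lower. The count of lower genes is therefore close to that of the genome, and the count of higher genes is not. The 31 genes were chosen with earlier results of these data known, and the part of that choice in the count was not tested. The 11 higher genes were the same in both lines, 14 genes were lower in both, 0 went in opposite directions, and Canx and Xbp1 were called lower in GIV-depleted cells but missed the threshold in control cells, a difference that was itself not called. Dnajb9, Ern1, Hspa5 and Selenos were called in neither line. Groups did not overlap for 13 higher and 16 lower genes in control cells, against 24.6% and 62.9% of all genes, and for 12 and 16 in GIV-depleted cells, against 16.7% and 61.8%.

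TPM are shares of a total, so a scaling was needed to read these directions. The median log2 change of all genes was -0.40 in control and -0.54 in GIV-depleted cells, and that of the 31 genes -0.25 and -0.35, with 19 of 31 above the median of all genes in each. Another scaling, TMM, moved the median of all genes by 0.40 and 0.55, and quantile normalization by 0.27 and 0.39. The all-gene split of 2025 higher and 6050 lower in control cells became 3902 and 3422 under TMM, 2987 and 4266 under quantile normalization and 1989 and 6539 after rescaling that left out mitochondrial genes and the 100 most abundant ones. In GIV-depleted cells 2161 and 8188 became 4737 and 4467, 3768 and 5522, and 2422 and 7670. The 11 rises were called under all 4 scalings in both lines. Of the falls, those of Sdf2l1, Pdia4, Dnajc3, Edem1 and Atf6 were called under all 4 in both lines, and those of Calr, Hyou1 and Eif2ak3 under all 4 in GIV-depleted cells. With the left-out library added, 1 gene was called higher in control cells and 0 lower, and 3 higher and 1 lower in GIV-depleted cells.

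**Figure D2:**
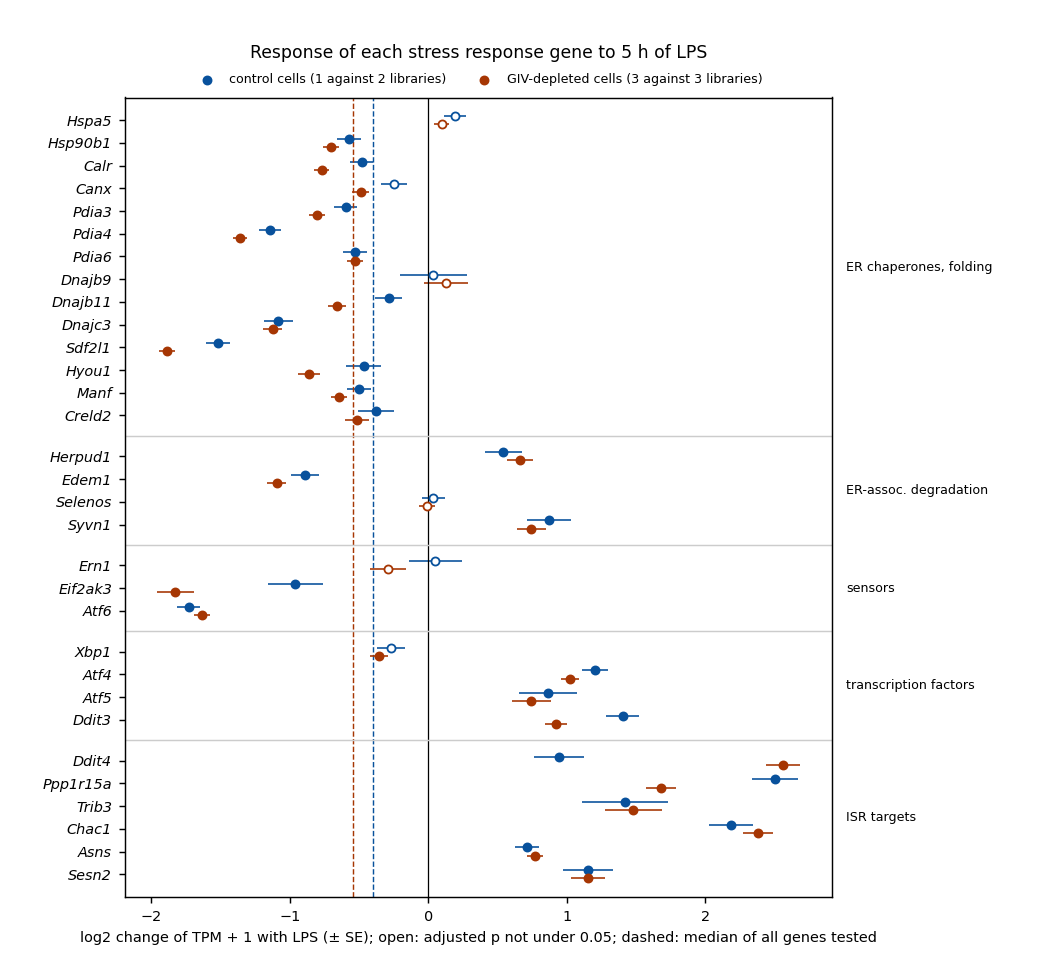
Log2 change of TPM + 1 with LPS ± SE for each of the 31 genes in control cells (1 against 2 libraries) and GIV-depleted cells (3 against 3); open symbols were not called and dashed lines are the medians of all genes tested (-0.40 and -0.54). All 6 integrated stress response targets lie right of 0 in both lines, and the ER chaperones mostly lie left of 0, about the dashed lines.

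The 14 ER chaperones and folding enzymes, which hold, isomerise or bridge new proteins, had 0 called higher by limma (1 in control and 0 in GIV-depleted cells at an unadjusted p under 0.05), with 11 called lower in control cells and 12 in GIV-depleted cells. Their median change was -0.49 and -0.68, close to that of all genes. Under TMM 3 were higher and 3 lower in control cells and 3 and 5 in GIV-depleted cells, so the fall of the group as a whole rests on the scaling. The marker gene of the unfolded protein response, Hspa5 (ENSMUSG00000026864, chr2:34771970-34777547, GRCm38), was at 721 and 777 TPM in control cells at 0 h, 854 TPM in control cells at 5 h, 801, 805 and 771 TPM in GIV-depleted cells at 0 h, and 883, 818 and 842 TPM at 5 h. The libraries with LPS lay above those without in each line, but by little. The change of 0.19 ± 0.08 in control cells (limma adjusted p = 0.0742) and 0.10 ± 0.05 in GIV-depleted cells (limma adjusted p = 0.137) was not called, but under TMM the values were 0.69 and 0.76 and were called.

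Sdf2l1, a partner of ER co-chaperones (ENSMUSG00000022769, chr16:17130138-17132383), fell most among the chaperones. It was at 149 and 153 TPM in control cells at 0 h and 52.1 TPM at 5 h, and at 158, 172 and 166 TPM in GIV-depleted cells at 0 h and 46.0, 44.3 and 41.6 TPM at 5 h. All 4 libraries with LPS lay below all 5 without. The log2 change was -1.52 ± 0.09 (limma adjusted p = 5.21e-06) and -1.89 ± 0.06 (limma adjusted p = 7.09e-08). The disulfide isomerase Pdia4 was at 89.2 and 96.3 TPM in control cells at 0 h and 41.4 TPM at 5 h, against 96.3, 96.8 and 92.1 TPM and 37.1, 36.4 and 35.7 TPM in GIV-depleted cells. Here too the libraries separated by LPS, with log2 changes of -1.14 ± 0.08 and -1.36 ± 0.05. Dnajc3, a co-chaperone of Hspa5 that also restrains eIF2 kinases, went from 25.3 ± 0.0880 TPM (SD, n = 2) to 11.4 TPM in control cells and from 25.7 ± 1.05 to 11.3 ± 0.829 TPM (SD, n = 3) in GIV-depleted cells, with log2 changes of -1.08 and -1.12.

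The other chaperones moved less. Dnajb11, another Hspa5 co-chaperone, was at 110 and 126 TPM in control cells at 0 h and 96.7 TPM at 5 h, and at 106, 106 and 108 TPM in GIV-depleted cells at 0 h and 71.6, 66.1 and 64.7 TPM at 5 h. Its libraries with LPS lay below those without in both lines, by -0.29 ± 0.10 and -0.66 ± 0.07 on the log2 scale, but under TMM these values were 0.21 and 0.00. Calr changed by -0.48 and -0.77, Hsp90b1 by -0.57 and -0.70, Pdia3 by -0.60 and -0.80, the secreted factor Manf by -0.50 and -0.64, Pdia6 by -0.53 and -0.53, the large chaperone Hyou1 by -0.47 and -0.86 and Creld2 by -0.38 and -0.52. In control cells under TMM, Calr, Hyou1 and Creld2 were at 0.017, 0.025 and 0.11. Manf, Pdia6, Hsp90b1 and Pdia3 were at -0.0061, -0.033, -0.074 and -0.10, and none of these genes was called. In GIV-depleted cells under TMM the falls of Calr and Hyou1 were called, but Hsp90b1, Pdia3, Manf, Pdia6 and Creld2 were not. Canx, the membrane-bound relative of Calr, was at -0.25 (limma adjusted p = 0.0520) and -0.49. Under TMM it was called higher in both lines, at 0.25 and 0.18. Dnajb9, a target of spliced Xbp1, was at 0.04 and 0.13 and not called.

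ER-associated degradation pulls misfolded proteins back into the cytosol, and its 4 genes did not move together. The ubiquitin ligase Syvn1 (Hrd1) went from 20.01 ± 2.73 TPM (SD, n = 2) to 37.3 TPM in control cells and from 23.4 ± 1.05 to 40.0 ± 4.69 TPM (SD, n = 3) in GIV-depleted cells, a rise of 0.87 ± 0.16 and 0.74 ± 0.11. Herpud1, which gathers that ligase complex, rose by 0.54 ± 0.14 and 0.66 ± 0.09. Edem1, a lectin that picks out misfolded glycoproteins, went from 97.9 ± 1.31 TPM (SD, n = 2) to 52.4 TPM and from 92.3 ± 6.44 to 42.7 ± 2.47 TPM (SD, n = 3), with changes of -0.89 ± 0.10 and -1.09 ± 0.07. Selenos, a selenoprotein of the same machinery, was at 0.04 and -0.01, though in GIV-depleted cells it was 0.65 under TMM, 0.12 under quantile normalization and 0.10 after rescaling, each of which was called.

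The sensors differed. Atf6 (ENSMUSG00000026663, chr1:170704674-170867771) was at 31.1 and 32.6 TPM in control cells at 0 h and 8.91 TPM at 5 h, and at 32.6, 30.7 and 32.4 TPM in GIV-depleted cells at 0 h and 9.65, 9.67 and 9.48 TPM at 5 h. The libraries with LPS lay far below the others and close to each other. Its change of -1.73 ± 0.08 in control cells (limma adjusted p = 2.19e-06) was the lowest of the 31 genes there, and that in GIV-depleted cells was -1.63 ± 0.05. Eif2ak3 (ENSMUSG00000031668, chr6:70844515-70905245) was at 7.33 and 10.7 TPM in control cells at 0 h and 4.07 TPM at 5 h, and at 9.55, 8.53 and 9.46 TPM in GIV-depleted cells at 0 h and 1.81, 1.73 and 2.07 TPM at 5 h. It fell in both lines, by 0.96 ± 0.20 and 1.83 ± 0.13 on the log2 scale, although in control cells the fall was not called under quantile normalization. Ern1 was at 4.60 and 5.43 TPM in control cells at 0 h and 5.22 TPM at 5 h, and at 3.92, 4.60 and 5.04 TPM in GIV-depleted cells at 0 h and 4.00, 3.65 and 2.90 TPM at 5 h. These groups overlapped, and the changes of 0.05 (limma adjusted p = 0.844) and -0.29 (limma adjusted p = 0.0713) were not called. Under quantile normalization the value in GIV-depleted cells turned to 0.36 and was called (limma adjusted p = 0.0177).

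Of the transcription factors, Atf4 (ENSMUSG00000042406, chr15:80255184-80257541) stood at 140 and 148 TPM in control cells at 0 h and 333 TPM at 5 h, and at 142, 161 and 160 TPM in GIV-depleted cells at 0 h and 311, 323 and 309 TPM at 5 h. All libraries with LPS lay above all without, with rises of 1.21 ± 0.09 (limma adjusted p = 2.61e-05) and 1.02 ± 0.06 (limma adjusted p = 2.55e-06). Ddit3, a pro-apoptotic partner of Atf4 (ENSMUSG00000025408, chr10:127290774-127296288), was at 20.3 and 23.4 TPM in control cells at 0 h and 59.4 TPM at 5 h, and at 24.3, 26.7 and 22.5 TPM in GIV-depleted cells at 0 h and 46.8, 48.7 and 46.3 TPM at 5 h. It rose by 1.40 ± 0.12 and 0.92 ± 0.08. A second Ddit3 gene model lies inside the first (ENSMUSG00000116429, chr10:127290829-127293753) and is listed at 0 in all 9 libraries, so how reads were shared between them is uncertain. Atf5, a relative of Atf4, rose by 0.87 ± 0.21 and 0.75 ± 0.14.

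With TPM as deposited, Xbp1 went the other way. It was at 147 and 167 TPM in control cells at 0 h and 130 TPM at 5 h, and at 203, 186 and 184 TPM in GIV-depleted cells at 0 h and 155, 149 and 144 TPM at 5 h. The libraries with LPS lay below those without in each line, by -0.27 (limma adjusted p = 0.0533) and -0.35 (limma adjusted p = 0.00165). Under TMM the values turned to 0.23 (limma adjusted p = 0.0340) and 0.31 (limma adjusted p = 0.00084), both called higher, so the direction rests on the scaling. These are totals over spliced and unspliced Xbp1.

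All 6 integrated stress response targets rose in both lines, with medians of 1.29 and 1.58. Ppp1r15a, the phosphatase subunit that reverses eIF2 phosphorylation (ENSMUSG00000040435, chr7:45522916-45526268), was at 10.2 and 11.6 TPM in control cells at 0 h and 66.5 TPM at 5 h. In GIV-depleted cells it was at 9.36, 9.68 and 11.9 TPM at 0 h and 37.1, 36.9 and 31.4 TPM at 5 h. Its rise of 2.50 ± 0.16 in control cells (limma adjusted p = 1.03e-05) was the highest of the 31 genes there, and the depleted cells had 1.68 ± 0.11. Chac1, an enzyme that breaks down glutathione, was at 1.49 and 2.03 TPM in control cells at 0 h and 11.5 TPM at 5 h, and at 1.72, 1.93 and 2.19 TPM in GIV-depleted cells at 0 h and 14.3, 15.3 and 13.5 TPM at 5 h. It rose by 2.19 ± 0.16 and 2.38 ± 0.11, with no overlap between times.

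Ddit4 (REDD1), an inhibitor of mTORC1 (ENSMUSG00000020108, chr10:59949669-59951834), was at 1.49 and 0.954 TPM in control cells at 0 h and 3.25 TPM at 5 h. In GIV-depleted cells it was at 1.07, 1.03 and 0.808 TPM at 0 h and 10.3, 11.1 and 10.5 TPM at 5 h. The depleted libraries with LPS stood well above every other library, with a rise of 0.94 ± 0.18 in control and 2.56 ± 0.12 in GIV-depleted cells. Trib3, a pseudokinase that restrains Atf4, was at 1.17 and 1.98 TPM in control cells at 0 h and 5.81 TPM at 5 h, and at 1.97, 3.30 and 1.92 TPM and 8.43, 9.93 and 6.86 TPM in GIV-depleted cells. Its replicates spread more than those of the other targets, and the rises were 1.42 ± 0.31 and 1.48 ± 0.21. Its low level means that the + 1 reduces these changes.

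Asns, which makes asparagine (ENSMUSG00000029752, chr6:7675169-7693254), was at 44.1 and 47.1 TPM in control cells at 0 h and 75.4 TPM at 5 h, and at 58.7, 62.9 and 57.3 TPM in GIV-depleted cells at 0 h and 107, 99.1 and 101 TPM at 5 h. The 4 groups did not overlap, and the rises with LPS were 0.71 ± 0.09 and 0.77 ± 0.06. Sesn2, a leucine sensor that restrains mTORC1, was at 2.98 and 4.10 TPM in control cells at 0 h and 9.02 TPM at 5 h, and at 3.74, 4.12 and 4.16 TPM and 9.66, 11.6 and 9.21 TPM in GIV-depleted cells. Its rise was 1.15 ± 0.18 and 1.15 ± 0.12.

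**Figure D3:**
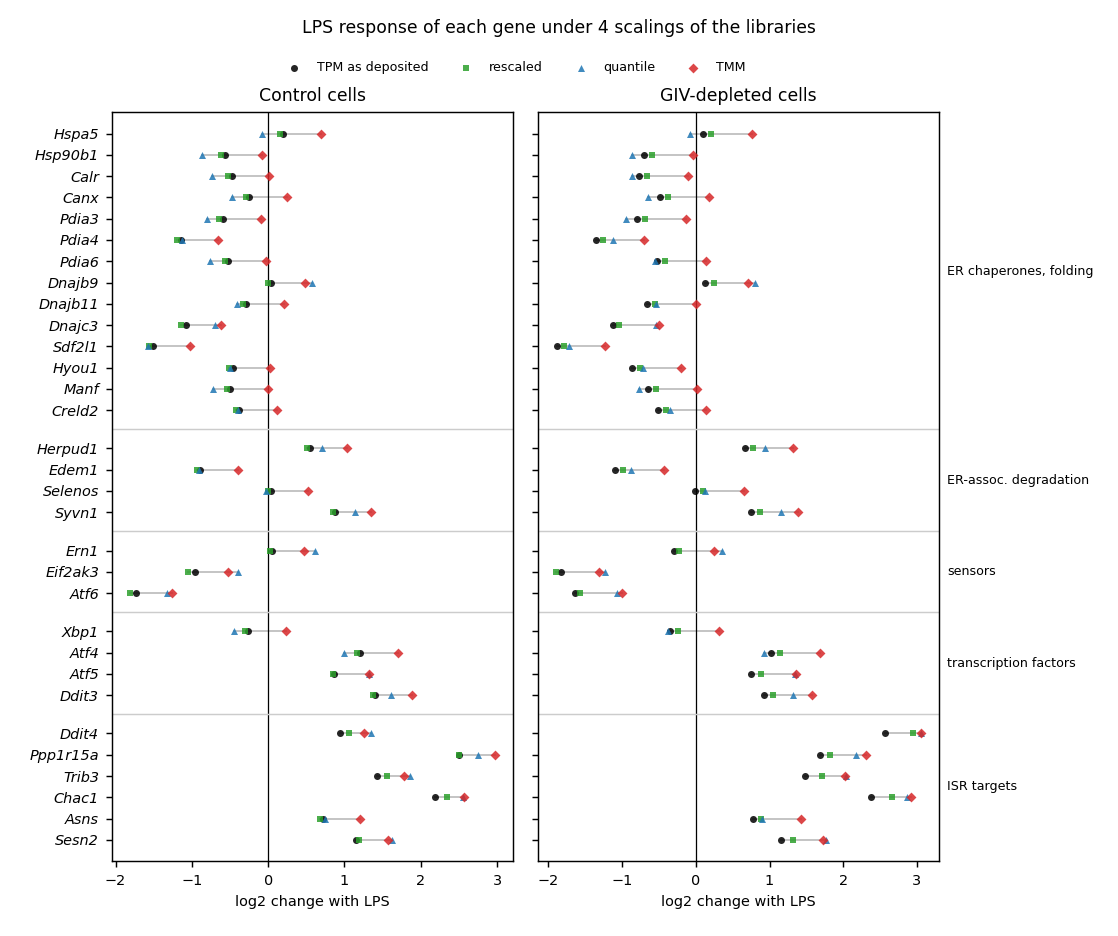
Log2 change with LPS of each of the 31 genes under the deposited TPM scaling and 3 others (rescaled, quantile, TMM), control cells left and GIV-depleted cells right; grey lines span the 4 values. The integrated stress response targets, Atf4, Atf5, Ddit3, Herpud1 and Syvn1 stay right of 0 under all 4, whereas Dnajb11, Creld2, Canx and Xbp1 cross 0 under TMM.

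Further genes of the pathway were taken from lists chosen with earlier results of these data known, and no test compared the lists. Their counts stand beside shares of all genes of 14.8% higher and 44.1% lower in control cells, and 15.8% and 59.7% in GIV-depleted cells. Of 26 further Atf4 targets tested (31 listed), 8 were higher and 11 lower in each line, with medians of -0.23 and -0.27, so these targets split where the 6 above all rose. Those that rose included Atf3, a feedback transcription factor (3.12 in control and 2.66 in GIV-depleted cells), the stress protein Nupr1 (3.12 and 4.05), the cystine transporter Slc7a11 (2.88 in control cells) and the repressor Jdp2 (2.78 in GIV-depleted cells). Those that fell included genes of serine and glycine supply, namely Psat1 (-1.20 and -1.07), Shmt2 (-1.06 and -1.25) and the glycine transporter Slc6a9 (-1.27 and -0.94). Under TMM 11 were higher and 3 lower in control cells and 13 and 3 in GIV-depleted cells.

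A further list of 14 genes held eIF2, its kinases and its exchange factor, and also Ppp1r15b, Nck1 and Gcn1l1. Of these 14, 4 were higher and 5 lower in control cells and 4 and 8 in GIV-depleted cells, with medians of -0.15 and -0.33 (7 and 2, and 8 and 3, under TMM). Ppp1r15b and Nck1 were among those higher in both lines. Eif2ak2 rose from 27.9 ± 0.0221 TPM (SD, n = 2) to 141 TPM in control cells and from 25.8 ± 1.44 to 120 ± 10.8 TPM (SD, n = 3) in GIV-depleted cells, log2 changes of 2.29 and 2.17. Ppp1r15b, the constitutive counterpart of Ppp1r15a, rose by 1.28 and 1.20. Eif2ak4 changed by -1.53 and -1.63, and the exchange factor subunits Eif2b4 by -1.35 and -1.61 and Eif2b1 by -0.58 and -1.05. Of the 20 cytosolic aminoacyl-tRNA synthetases, 4 were higher and 6 lower in control cells and 4 and 10 in GIV-depleted cells. Kars and Nars rose by 0.63 and 0.46 in control cells, while Vars and Mars fell by 1.11 and 0.98, but under TMM 14 and 15 of the 20 were higher and 2 lower in each line.

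Other ER genes were counted beside all genes tested, of which 14.8% were called higher and 44.1% lower in control cells. In GIV-depleted cells these shares were 15.8% and 59.7%. Of 24 further folding genes, limma called 0 higher and 15 lower in control cells and 0 and 19 in GIV-depleted cells (0 and 17, and 0 and 19, at an unadjusted p under 0.05), with medians of -0.56 and -0.74. Under TMM they split into 5 higher and 7 lower, and 7 and 9. Erp29, a folding factor of secretory proteins, went from 584 ± 81.5 TPM (SD, n = 2) to 124 TPM in control cells and from 603 ± 14.0 to 110 ± 10.6 TPM (SD, n = 3) in GIV-depleted cells, changes of -2.22 and -2.45. The 24 genes of translocation and glycosylation had 0 higher by limma, also at an unadjusted p under 0.05, with 10 lower in control and 20 in GIV-depleted cells and medians of -0.19 and -0.39, but under TMM 14 and 15 of them were higher. Stt3b, a catalytic subunit of the oligosaccharyltransferase, was at -1.06 and -1.33.

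The shares of all genes given above apply to the next lists too. Of 21 further degradation genes tested (22 listed), 3 were higher and 7 lower in control cells and 3 and 13 in GIV-depleted cells, and under TMM 11 and 12 were higher. Faf2, which recruits the extracting ATPase, was at 0.65 and 0.49, and the conjugating enzyme Ube2g2 at -0.82 and -1.09. Of 14 regulators of the unfolded protein response tested (15 listed), 2 were higher and 5 lower in control cells and 2 and 9 in GIV-depleted cells, and under TMM 4 and 1, and 6 and 4. Tmbim6, an ER membrane inhibitor of cell death, rose by 1.06 and 0.88, and the ER-bound factor Creb3l2 changed by -1.27 and -1.33.

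**Figure D4:**
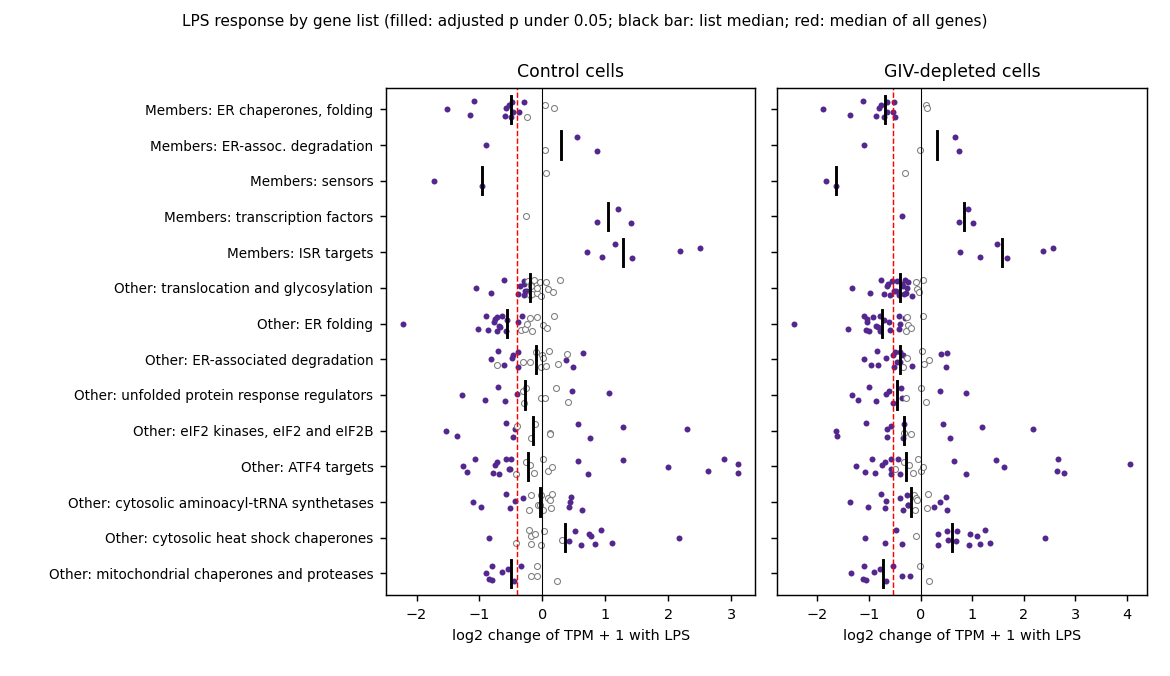
Log2 change with LPS of every tested gene by list, control cells left and GIV-depleted cells right; filled points were called, black bars are list medians and the red dashed line is the median of all genes (-0.40 and -0.54). The integrated stress response targets have the medians furthest right (1.29 and 1.58), and ER folding lists lie about the red line.

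GIV depletion without LPS gave few calls in the set, in a comparison where Ccdc88a itself was not called either. With limma 1 of the 31 genes was called higher and 0 lower (3 and 1 at an unadjusted p under 0.05), where 1.22% of all genes tested were called, 0.489% higher and 0.729% lower, and the median was 0.08, against 0.02 for all genes. The gene called was Asns, at 45.6 ± 2.08 TPM (SD, n = 2) in control and higher in all 3 GIV-depleted libraries, by 0.38 ± 0.07 (limma adjusted p = 0.0471). That call was lost with 8 of the 9 libraries left out in turn, though its value stayed between 0.33 and 0.43. Groups did not overlap for 9 genes that were higher and 2 that were lower, where 15.6% and 12.7% of all genes did so. Xbp1 was higher in all 3 depleted libraries, by 0.29 ± 0.08 (limma adjusted p = 0.170), and was not called.

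GIV depletion with LPS separated a few genes of the set. Ddit4 and Asns were called higher and Ppp1r15a, Dnajb11 and Eif2ak3 lower, 2 and 3 of 31, where 5.27% of all genes were called, 0.89% higher and 4.38% lower. The median of the 31 was -0.09, against -0.12 for all genes. Groups did not overlap for 8 higher and 15 lower genes, against 15.8% and 48.7% of all genes, with the lone control library deciding each. These comparisons share their control library with those of the LPS response above.

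Ddit4 was at 10.6 ± 0.412 TPM (SD, n = 3) in GIV-depleted cells with LPS and 3.25 TPM in the control library, a difference of 1.45 ± 0.17 (limma adjusted p = 0.00684). It remained called with each of the 8 libraries left out in turn, with adjusted p up to 0.0306. Ppp1r15a differed by -0.90 ± 0.15 (limma adjusted p = 0.0208) and was lost without GIV-depleted replicate 3 with LPS (limma adjusted p = 0.0508). Dnajb11 differed by -0.52 ± 0.09 (limma adjusted p = 0.0244) and kept its call in 3 of 8 such fits. Asns, at 0.44 ± 0.08 (limma adjusted p = 0.0297), and Eif2ak3, at -0.82 ± 0.19 (limma adjusted p = 0.0495), each kept it in 2 of 8. None of these 5 was called with the left-out library added.

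**Figure D5:**
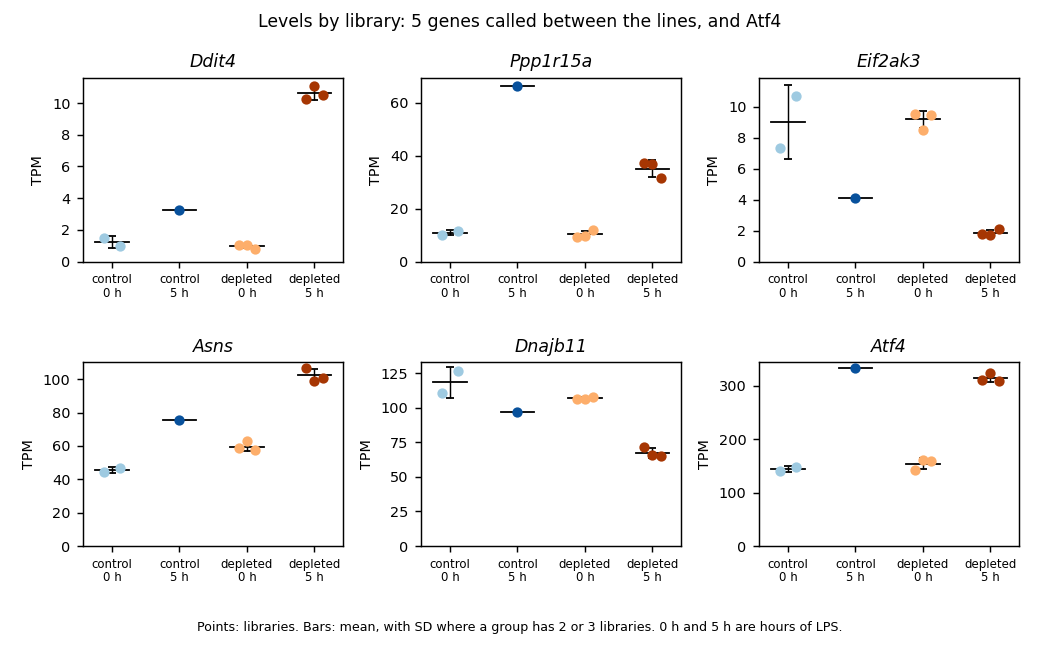
TPM by library of the 5 genes called between the lines and of Atf4, by line and hours of LPS; points are libraries and bars the mean, with SD where a group has 2 or 3 libraries. The 3 GIV-depleted libraries with LPS lie above the control library for Ddit4 (10.3 to 11.1 against 3.25 TPM) and below it for Ppp1r15a (31.4 to 37.1 against 66.5 TPM), while Atf4 is close in both lines.

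The LPS responses of the lines were then compared directly, as the depleted minus the control response. Of the 31 genes 1 was called, Ddit4, whose response was larger in GIV-depleted cells by 1.62 ± 0.22 (limma adjusted p = 0.0487), where 0.226% of all genes were called, 0.0948% higher. The call remained only without control replicate 3 at 0 h among the 8 fits that left out a library, with values of 1.44 to 1.79 and adjusted p up to 0.134. The response of Ppp1r15a differed by -0.83 ± 0.20 (limma adjusted p = 0.115), that of Eif2ak3 differed by -0.87 ± 0.24 (limma adjusted p = 0.147) and that of Ddit3 by -0.48 ± 0.15 (limma adjusted p = 0.174), and none was called. For Atf4 the difference was -0.18 ± 0.11 (limma adjusted p = 0.449) and for Hspa5 -0.09 ± 0.10 (limma adjusted p = 0.650). The median difference was -0.13 for the 31 genes and -0.15 for all genes. Of the wider pathway, Nupr1 was called in the same direction as Ddit4, at 0.93 ± 0.12 (limma adjusted p = 0.0433), rising to 418 ± 23.2 TPM (SD, n = 3) in GIV-depleted cells against 168 TPM in the control library. It was 1 of 26 further Atf4 targets tested, and its call too rests on the lone control library at 5 h. No fit with a library left out is given for it. With the left-out library added, 0 of all genes were called in this comparison.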

How the data were processed

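Total RNA of mouse RAW cells was sequenced as ribosome-depleted stranded libraries with paired reads, per the labels' protocols. The authors deposited log2 values, log2(TPM + 1) per gene, made with kallisto 0.45.0 on GRCm38 per the submitters' processing notes; the annotation release is not given in the sources used here. Gene positions are from GENCODE M21. Of 11 samples in the labels 10 have a column, and 9 libraries were used. TPM keep no depth.

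limma 3.58.1 in R 4.3.3 fitted the 4 groups in 1 model (5 residual degrees of freedom, variance trend) to the 13711 genes whose log2(TPM + 1) reached 1 in 2 or more libraries. A check on simulated data changed few genes, unlike LPS here, and left out the difference of the LPS responses. Benjamini-Hochberg adjustment ran over all genes of each of the 5 comparisons, with a threshold of 0.05. TMM was computed from TPM (trims of 30% and 5%), and rescaling left out mitochondrial genes and the 100 most abundant. The set number was tried as a block. Leave-outs, other filters, a pseudocount of 0.1 and other variance settings were also run.

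The 31 members and the further lists were chosen with earlier results of these data known. All members are named. Values in every library are given for the 8 largest LPS changes per line, members called between lines or in the difference of responses, and Hspa5, Xbp1, Atf4, Ddit3 and the sensors. Further lists name genes among the 3 largest calls per direction. Promoters were printed for genes with a motif that moved most, without bases past the start site. Python 3.11.15, pandas 2.3.3 and matplotlib 3.10.9 made tables and figures.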

Additional observations from a re-analysis of the deposited data

Results flagged for a closer look

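The LPS response of Ddit4 differed between the lines by the test of the difference itself, being 1.62 log2 units larger in GIV-depleted cells (limma adjusted p = 0.0487, a value that ranged from 0.0254 to 0.715 over 18 alternatives, 6 of which were called). The second Ddit3 gene model, which overlaps the first and is listed at 0 in the 9 libraries used, stood at 16.9 TPM in the library left out, control cells at 0 h replicate 2.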

How the results depend on the processing

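Counts below are of the 31 genes called higher and lower. With the left-out library added, they were 1 and 0 for LPS in control cells, 3 and 1 for LPS in GIV-depleted cells, and 0 and 0 for the other 3 comparisons. LPS in control cells then reached 0.91 for Dnajb11, 0.30 for Hyou1, 1.14 for Manf, 0.64 for Hsp90b1, 0.76 for Calr, 0.83 for Creld2, 0.63 for Pdia6 and 0.68 for Pdia3. That library held few coding transcripts.

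Under TMM the counts were 17 and 6 for LPS in control cells, 16 and 8 for LPS in GIV-depleted cells, and 4 and 3 for depletion with LPS. Changes that turned upwards in control cells were Dnajb11 0.21, Hyou1 0.025, Calr 0.017, Xbp1 0.23, Canx 0.25 and Creld2 0.11, and in GIV-depleted cells Dnajb11 0.0031, Manf 0.021, Xbp1 0.31, Selenos 0.65, Canx 0.18, Creld2 0.14 and Pdia6 0.13. Quantile normalization gave Ern1 0.36 and Selenos 0.12 in GIV-depleted cells, both called, and 1 lower gene for depletion without LPS, and rescaling gave Selenos 0.10. TMM and quantile normalization remove much of the fall of the median gene by construction.

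With only the 2 groups compared, LPS in control cells gave 4 and 5, and both depletion comparisons 0 and 0; fewer samples entered these fits. No filter gave 0 higher for depletion without LPS and for the difference. No variance trend gave 0 and 0 for depletion without LPS and 1 and 2 for depletion with LPS. A pseudocount of 0.1 and a stricter filter each gave 0 for the difference; the cause was not tested.

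Leaving out each library in turn gave 11 to 12 higher and 12 to 16 lower for LPS in control cells, 11 and 16 to 17 for LPS in GIV-depleted cells, 0 to 1 and 0 for depletion without LPS, 1 to 2 and 0 to 3 for depletion with LPS, and 0 to 1 and 0 for the difference. Without control replicate 2 at 5 h, LPS in control cells, depletion with LPS and the difference cannot be fitted.

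With the set number as a replicate block the counts were 9 and 13, 11 and 16, 0 and 0, 1 and 0, and 0 and 0 in the order of the 5 comparisons. Same-numbered GIV-depleted libraries correlated by 0.0617 to 0.0970 in their deviations from group means, each best with its own number. These values are small. Whether the numbers mark a pairing was not tested, and the labels do not state one. Unknown depth and 1 or 2 control libraries per time limit all comparisons of the lines.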

Other observations

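Chaperones outside the ER were compared with those inside it. Of all genes tested, LPS gave 14.8% higher and 44.1% lower in control cells, and 15.8% and 59.7% in GIV-depleted cells. Of 18 cytosolic heat shock chaperone rows tested (20 listed, with Hspa4l under 2 identifiers with identical values), 9 were higher and 1 lower with LPS in control cells and 13 and 4 in GIV-depleted cells, with medians of 0.37 and 0.61. Over the 4 scalings 8 to 14 were higher and 1 to 3 lower in control cells, and 12 to 15 and 1 to 4 in GIV-depleted cells. The inducible Hsp70 gene Hspa1b went from 13.0 ± 1.54 TPM (SD, n = 2) to 62.1 TPM in control cells and from 19.4 ± 0.844 to 108 ± 12.1 TPM (SD, n = 3) in GIV-depleted cells, but Hspa1a is a near-identical copy, so the split between them is uncertain. With LPS, 5 of the 18 rows, which are 4 genes since Hspa4l counts under both identifiers, were higher in GIV-depleted than in control cells and 0 lower by limma (10 and 1 at an unadjusted p under 0.05). Of all genes 0.89% were called higher, and each call rests on the lone control library at 5 h; with the left-out library added 0 were called. Among the 4 genes were the Hsp40 gene Dnajb4 (0.89 ± 0.12, limma adjusted p = 0.0110) and the co-chaperone Bag3 (0.57 ± 0.08, limma adjusted p = 0.0123). Of 12 mitochondrial chaperones and proteases, limma called 0 higher, also at an unadjusted p under 0.05, with 8 lower in control and 10 in GIV-depleted cells, such as the Hsp40 Dnaja3 (-0.90 and -1.35) and the protease Lonp1 (-0.84 and -1.11). Under TMM 4 were higher and 2 lower in control cells and 5 and 5 in GIV-depleted cells.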
